A study of Rattus norvegicus with 10 samples.

Results

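The mitosis genes described here are kinases, cyclins, kinetochore and spindle proteins, kinesins, cytokinesis proteins and condensin subunits that a cell uses to divide its chromosomes. They were taken by gene name from a list of 50, of which 49 had a row among the 22250 genes of the deposited table; Ccnb2 was not found by name and is not analysed here. All 49 passed the filter on low counts and were among the 14320 genes tested. They were chosen with earlier results of these data known. Messenger RNA was sequenced from rat lung tissue in 10 libraries, 5 titled MOD and 5 titled XBS. The design text describes a rat model of neutrophilic asthma made with lipopolysaccharide and ovalbumin, and treatment with a formula abbreviated SP. Neither title is spelled out by the submitters or tied to that formula, so groups are named as titled, and strain, age, dose and time were not found in the sources. A human line also stands among the sample descriptions, the bronchial cells 16HBE, whereas the table holds rat Ensembl genes and the summed alveolar type 2 markers, such as the surfactant gene Sftpc, reached 16598 to 33444 CPM (counts scaled to the library total) per library. Whether the 5 libraries of a group are separate animals is not stated, so the spread between them may be technical.

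Mitosis begins when CDK1 with cyclins A and B, and the kinases PLK1 and Aurora A, drive chromosomes to condense and a spindle to form. Condensin compacts the chromosomes, kinetochores attach them to microtubules, and the spindle checkpoint holds separase in check until all are attached. Most of these genes are transcribed in a burst before division, by the MuvB complex with B-MYB and FOXM1, which bind a promoter element called the cell cycle genes homology region, often near a Y box bound by NF-Y. In adult lung few cells divide, so these transcripts are usually scarce there.

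Promoter windows from RefSeq (assembly GRCr8, 250 bases before to 50 after the gene start) were matched by symbol for 42 of the 49 genes; 6 had no window and Kif2c, with several, was left out. The letters TTTGAA, the core of the cell cycle genes homology region, were found on either strand in 30 of the 42 windows (71.4%), against 18.3% of 33469 windows of the same length and 17.1% of 21851 protein-coding ones. The Y box letters CCAAT were in 29 of 42 (69.0%), against 37.5% and 38.0%. Both were in 23 windows (54.8%, against 7.41% and 7.04%), and neither in 6 (Kif18a, Ncaph, Bub1, Aurka, Ncapg2 and Ncapd3). Between -100 and 20 bases from the start, counting the start as 0, TTTGAA was found in 59.5% of the mitosis genes and 6.04% of protein-coding windows. The variant TTCGAA was in 3 of 42 windows (1.69% of all windows), and the E2F letters TTTGGCGC and TTTCGCGC in 1 each (0.493% and 0.326%). Median GC content was 59.3% in the 42 windows and 55.0% in the protein-coding ones. A match is a description of letters, not a binding site.

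**Figure D1:**
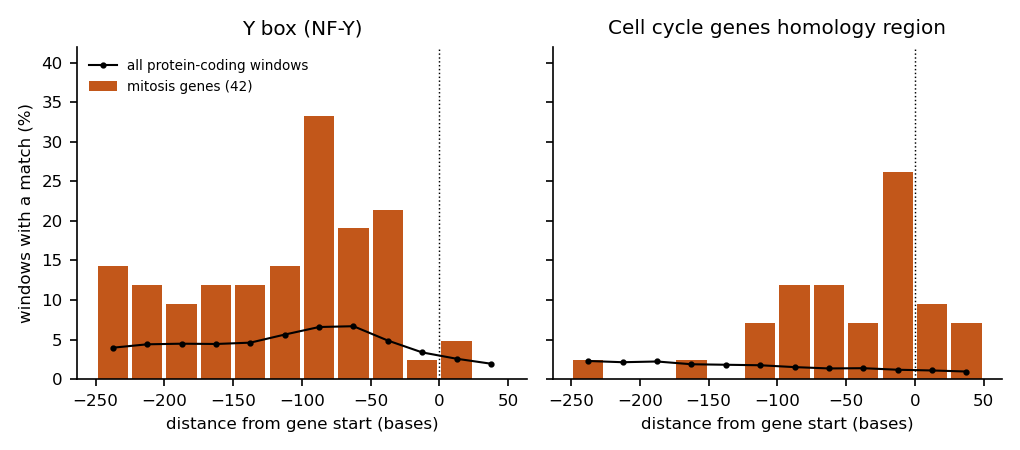
Share of promoter windows (percent, y axis) with at least 1 match starting in each 25-base bin, by distance from the gene start (x axis, bases), for the 42 mitosis genes (bars) and all protein-coding windows (line). The homology region was most frequent in the bin from -25 to 0 (26.2% of mitosis genes, 1.18% of protein-coding windows), and the Y box in the bin from -100 to -75 (33.3% and 6.59%).

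The windows of the 3 genes of smallest p are shown to -250, because Bub1 and Mki67 are the members that passed the test over all genes; the Bub1 window held neither element. After them come the stretches from -100 to 19 of 6 further genes of small p that carried both elements there. Each is printed 5′ to 3′ on the strand of its gene, with capitals for CCAAT or its reverse ATTGG and for TTTGAA or its reverse TTCAAA; in Mki67 the second TTTGAA and an ATTGG share a base.
Bub1, chr3:135504902-135505171 (GRCr8, - strand): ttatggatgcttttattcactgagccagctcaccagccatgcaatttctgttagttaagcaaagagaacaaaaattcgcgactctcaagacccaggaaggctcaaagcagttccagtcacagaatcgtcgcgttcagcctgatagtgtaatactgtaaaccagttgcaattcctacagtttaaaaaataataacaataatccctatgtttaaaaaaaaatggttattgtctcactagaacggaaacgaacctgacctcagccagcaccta
Mki67, chr1:199952574-199952843 (GRCr8, - strand): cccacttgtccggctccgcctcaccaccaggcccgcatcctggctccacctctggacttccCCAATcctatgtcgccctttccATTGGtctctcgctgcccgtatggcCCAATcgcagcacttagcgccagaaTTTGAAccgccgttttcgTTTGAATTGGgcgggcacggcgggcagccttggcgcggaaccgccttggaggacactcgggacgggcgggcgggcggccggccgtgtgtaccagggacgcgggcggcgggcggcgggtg
Ncapd2, chr4:159677919-159678188 (GRCr8, - strand): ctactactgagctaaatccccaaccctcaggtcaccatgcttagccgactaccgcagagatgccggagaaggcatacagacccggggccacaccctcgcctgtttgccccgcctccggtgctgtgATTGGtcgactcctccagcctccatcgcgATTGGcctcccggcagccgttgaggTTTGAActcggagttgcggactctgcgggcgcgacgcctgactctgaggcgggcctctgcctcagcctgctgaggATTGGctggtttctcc
Top2a, chr10:84473074-84473193 (GRCr8, - strand): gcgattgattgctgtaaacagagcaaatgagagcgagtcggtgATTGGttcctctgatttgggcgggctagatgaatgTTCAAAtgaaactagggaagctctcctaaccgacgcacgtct
Nusap1, chr3:127057195-127057314 (GRCr8, + strand): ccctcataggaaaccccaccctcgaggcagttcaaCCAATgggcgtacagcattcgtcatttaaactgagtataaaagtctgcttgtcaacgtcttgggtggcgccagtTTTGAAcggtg
Ect2, chr2:111966607-111966726 (GRCr8, - strand): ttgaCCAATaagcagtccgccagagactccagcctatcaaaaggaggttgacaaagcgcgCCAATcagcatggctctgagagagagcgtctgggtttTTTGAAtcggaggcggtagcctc
Espl1, chr7:135302616-135302735 (GRCr8, + strand): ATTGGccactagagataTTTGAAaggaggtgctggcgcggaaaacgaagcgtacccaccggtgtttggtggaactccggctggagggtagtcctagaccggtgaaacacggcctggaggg
Cenpf, chr13:103760867-103760986 (GRCr8, - strand): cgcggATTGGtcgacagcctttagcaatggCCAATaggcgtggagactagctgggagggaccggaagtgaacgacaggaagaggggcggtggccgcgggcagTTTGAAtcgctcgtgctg
Aspm, chr13:53625484-53625603 (GRCr8, + strand): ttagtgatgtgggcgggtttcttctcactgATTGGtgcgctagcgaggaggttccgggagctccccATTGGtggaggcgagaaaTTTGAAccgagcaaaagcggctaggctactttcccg
In the short stretches the homology region began at -22 in Top2a, 9 in Nusap1, -3 in Ect2, -83 in Espl1, 2 in Cenpf and -16 in Aspm, and in each a Y box lay upstream of it. The median log2 fold change, XBS over MOD, was 0.55 for the 30 genes with TTTGAA and 0.54 for the 12 without.

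Mitosis genes were higher in XBS than in MOD almost throughout. Of the 49 genes, 48 had a positive log2 fold change, where 51.9% of all tested genes did, and the median was 0.56 (1.47-fold), where the median of all tested genes was 0.01. Over all 14320 genes 2 members passed an adjusted p of 0.05, both of them higher in XBS, namely the genes Bub1 and Mki67. None of the others passed in either direction (0.0279% of all tested genes passed as higher, and 0.0768% in either direction). At an unadjusted p under 0.05 by edgeR, 42 of 49 were higher and 0 lower (7.4% of all tested genes were higher by this rule and 5.78% lower). In 23 of 49 every XBS library lay above every MOD library (1.61% of all tested genes). DESeq2 called 25 of 49 higher (1.41%) and voom with sample weights 10 (0.3%). The 48 positive folds ran from 1.07-fold (Kif4a) to 1.89-fold (Sgo1). In bulk tissue, more dividing cells and more of these transcripts in each cell cannot be told apart. Without XBS 2 and XBS 3, 2 libraries low in airway genes, 34 members were higher at an unadjusted p under 0.05 by edgeR (5.47% of all tested genes), and without MOD 4 and XBS 5, of which XBS 5 was highest for B cell markers, 33 were (5.86%); 0 passed the adjusted threshold in either case. With the replicate number as a block, 38 were higher at that level (7.79%) and 0 passed.

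**Figure D2:**
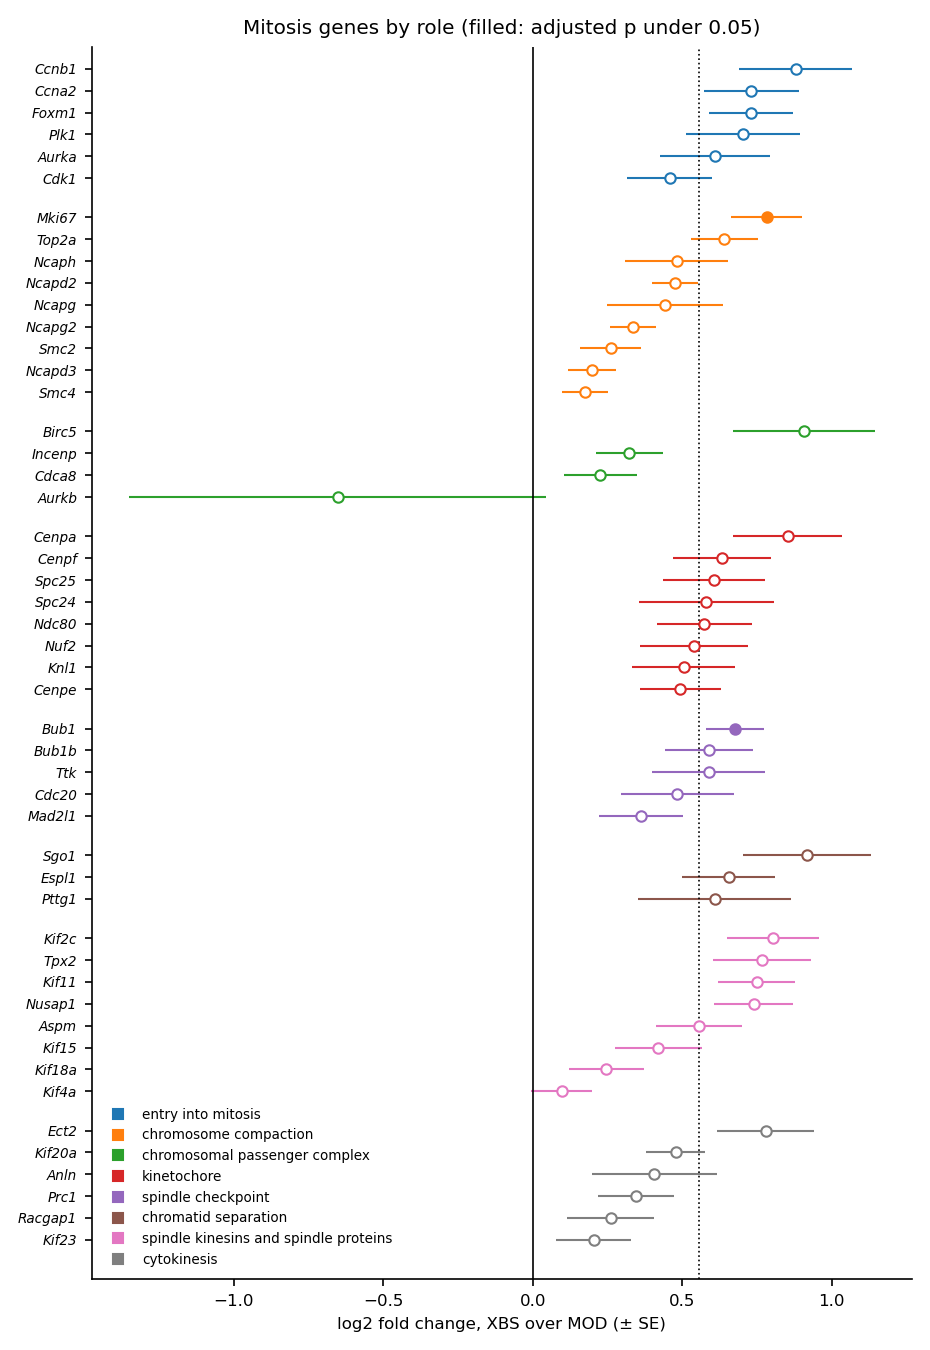
Log2 fold change of XBS over MOD (x axis) with its standard error for each of the 49 mitosis genes (y axis), coloured by role; filled points passed an adjusted p of 0.05 over all genes, and the dotted line is the median of 0.56. Every gene but Aurkb lies right of 0, and Aurkb has the widest error.

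Total counts were 11998979 to 15518929 per library, so 3 counts corresponded to 0.193 to 0.25 CPM (counting error only). Single members had from 26 counts (Sgo1) to 3781 (Aurkb) in a library, so no member was near that floor. CPM values below are scaled by TMM (library size adjusted for composition) and listed from library 1 to 5; adjusted p-values are from edgeR over all tested genes.

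Bub1, a checkpoint kinase that marks the kinetochore, rose 1.60-fold. It stood at 14.8, 15.6, 12.5, 15.1 and 15.1 CPM in MOD and at 22.8, 23.5, 26.1, 24.1 and 20.2 CPM in XBS. Every XBS library lay above every MOD library, with means of 14.6 ± 1.21 and 23.3 ± 2.17 CPM (SD, n = 5), a log2 fold change of 0.68 ± 0.10 (SE) and adjusted p = 0.0412. The gene (ENSRNOG00000032778) is listed on chromosome 3 from 120373604 to 120404910, in the coordinates of the deposited table, whose rat build the sources do not name. With single libraries left out the adjusted p ran from 0.0372 to 0.123 and the call held in 1 of 10 such runs, without XBS 5.

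The other checkpoint genes were also higher without passing the adjusted threshold. Bub1b, which encodes BUBR1, the inhibitor of the anaphase-promoting complex, stood at 8.10, 9.59, 8.05, 8.44 and 9.56 CPM in MOD and 9.86, 13.4, 15.9, 15.2 and 11.5 CPM in XBS, with no overlap (1.51-fold, adjusted p = 0.158). Mad2l1, which encodes the checkpoint protein MAD2, had 8.60, 11.6, 8.05, 8.97 and 9.49 CPM in MOD against 11.1, 11.8, 15.1, 11.3 and 10.8 CPM in XBS (1.29-fold, adjusted p = 0.323). MOD 2 lay within the XBS range, and XBS 3 stood highest. Ttk, the MPS1 kinase that starts checkpoint signalling, was 1.504-fold higher (adjusted p = 0.238), and Cdc20, the activator that the checkpoint restrains, 1.40-fold (adjusted p = 0.323). All 5 checkpoint genes were higher at an unadjusted p under 0.05 (7.4% of all tested genes).

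Genes of entry into mitosis differed by 1.37-fold to 1.84-fold, and the 6 measured were all higher at an unadjusted p under 0.05 (7.4% of all tested genes). Foxm1, the transcription factor that switches on many genes of this set, stood at 11.5, 8.15, 8.78, 8.57 and 7.15 CPM in MOD and 15.1, 15.8, 15.3, 14.9 and 12.3 CPM in XBS. The groups did not overlap, with MOD 1 the highest of its group and XBS 5 the lowest of its own (1.66-fold, log2 fold change 0.73 ± 0.14 (SE), adjusted p = 0.0858). Ccna2, which encodes cyclin A2, had 8.82, 9.16, 11.9, 11.0 and 10.1 CPM in MOD and 12.8, 14.8, 22.4, 18.4 and 16.1 CPM in XBS (1.66-fold, adjusted p = 0.106). Its span lies wholly within Exosc9 on the other strand; the sources do not say whether counting used strand, so reads of the pair cannot be told apart, and Exosc9 itself had a log2 fold change of 0.11. Cdk1, the kinase that cyclins A and B activate, had 13.5, 11.6, 11.0, 13.6 and 13.2 CPM in MOD and 14.1, 14.7, 21.5, 20.3 and 15.6 CPM in XBS, with XBS 1 just above MOD 4 (1.37-fold, adjusted p = 0.225). Ccnb1, cyclin B1, was 1.84-fold higher without overlap (adjusted p = 0.106). Plk1, which encodes Polo-like kinase, and Aurka, the kinase Aurora A of the spindle poles, were 1.63-fold and 1.53-fold higher with overlapping groups (adjusted p = 0.186 and 0.214).

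Among the genes of chromosome compaction, Mki67 rose 1.72-fold. It encodes Ki-67, a coat protein of mitotic chromosomes used as a marker of proliferation. Its values were 46.0, 37.9, 38.6, 35.8 and 34.4 CPM in MOD and 53.9, 71.5, 80.7, 65.6 and 59.7 CPM in XBS. The groups did not overlap (38.6 ± 4.50 and 66.3 ± 10.4 CPM, SD, n = 5; log2 fold change 0.78 ± 0.12, SE; adjusted p = 0.0445). Mki67 (ENSRNOG00000028137) is listed on chromosome 1 from 207993895 to 208020454. Its adjusted p ran from 0.0413 to 0.167 with single libraries left out and held in 2 of 10 runs, without MOD 1 or without XBS 1. Top2a, the topoisomerase that untangles sister chromatids, was 1.56-fold higher without overlap (adjusted p = 0.0854).

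The 7 condensin subunits among the mitosis genes had smaller positive folds than Mki67 and Top2a, and an eighth subunit, Ncaph2 of condensin II, which is in a related list, had a negative one. Ncapd2, a subunit of condensin I, had 20.9, 17.4, 18.4, 18.3 and 17.99 CPM in MOD and 25.1, 26.3, 27.1, 25.7 and 25.03 CPM in XBS. Its XBS libraries lay close together and all above MOD 1, the highest MOD library (log2 fold change 0.48 ± 0.08, SE; adjusted p = 0.0734). The other subunits found only in condensin I were close to it in size, Ncaph at 0.48 ± 0.17 and Ncapg at 0.44 ± 0.19 (log2 fold change, SE). The condensin II subunits Ncapg2 and Ncapd3 had 0.34 ± 0.08 and 0.20 ± 0.08, and Ncaph2, named after its values were seen, had -0.10 ± 0.06 with an adjusted p of 0.442. Its MOD libraries averaged 68.2 ± 2.80 CPM and its XBS libraries 63.5 ± 2.25 CPM (SD, 5 libraries each). For the ATPases shared by both complexes, Smc2 and Smc4, the values were 0.26 ± 0.10 and 0.17 ± 0.08. These differences between complexes were not tested. Smc4 had 63.1, 67.0, 70.2, 58.8 and 70.6 CPM in MOD and 64.3, 77.4, 79.5, 75.4 and 75.6 CPM in XBS, so that XBS 1 lay within the MOD range. Per length, in FPKM (counts per length and library total), Smc4 was the most abundant of the 7 in MOD at 15.4 ± 1.14, then Smc2 at 6.45 ± 0.38, Ncapd2 at 4.42 ± 0.36, Ncapd3 at 3.50 ± 0.17, Ncapg2 at 2.57 ± 0.12, Ncaph at 2.52 ± 0.59 and Ncapg at 1.77 ± 0.31 (SD, n = 5). Ncapg2 and Ncaph could not be ordered within these errors. Ncaph2 was more abundant than Smc4, with a mean over the 10 libraries of 28.8 FPKM against 16.5. All 9 compaction genes were higher at an unadjusted p under 0.05 (7.4% of all tested genes).

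In the kinetochore all 8 genes were higher at an unadjusted p under 0.05 (7.4% of all tested genes), with log2 fold changes between 0.49 and 0.85. Cenpa, the histone H3 variant that marks the centromere, had 2.22, 2.60, 2.63, 3.26 and 2.97 CPM in MOD and 5.42, 4.52, 5.99, 4.81 and 4.02 CPM in XBS, without overlap (1.81-fold, adjusted p = 0.106). Cenpf, a large protein of the outer kinetochore, had 21.4, 13.0, 14.2, 16.5 and 18.3 CPM in MOD and 19.6, 23.4, 25.5, 31.8 and 29.0 CPM in XBS. MOD 1 lay above XBS 1, and XBS 4 was highest (1.55-fold, adjusted p = 0.165). Cenpe, a kinesin that carries chromosomes to the spindle equator, stood at 8.74, 9.80, 8.63, 8.97 and 10.6 CPM in MOD and 9.86, 13.3, 15.2, 14.5 and 12.9 CPM in XBS, with XBS 1 below MOD 5 (1.41-fold, adjusted p = 0.188). The 4 subunits of the NDC80 complex, the direct link to microtubules, were higher by similar amounts: Spc25 1.52-fold, Spc24 1.495-fold, Ndc80 1.49-fold and Nuf2 1.45-fold higher (adjusted p = 0.201, 0.323, 0.193 and 0.259). Knl1, the platform for BUB1 and BUBR1, was 1.42-fold higher (adjusted p = 0.267).

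The chromosomal passenger complex, in which Aurora B is carried by INCENP, survivin and borealin, held the only gene with a negative fold change. Aurkb, the gene of Aurora B, stood at 194, 24.9, 121, 226 and 92.0 CPM in MOD and 40.8, 25.5, 27.7, 239 and 84.3 CPM in XBS. The libraries of each group ran over nearly the same span, and the difference was smaller than its standard error (log2 fold change -0.65 ± 0.70, SE; adjusted p = 0.702). Per length Aurkb averaged 29.6 ± 18.2 FPKM in MOD, against 3.80 ± 0.45 for Incenp, 7.02 ± 2.14 for Birc5 and 6.84 ± 0.87 for Cdca8 (SD, n = 5), so its level and its spread both set it apart from its partners. Birc5, which encodes survivin, had 8.96, 6.42, 4.24, 4.79 and 6.52 CPM in MOD and 9.20, 12.3, 16.4, 8.41 and 11.6 CPM in XBS. XBS 4 lay below MOD 1 (1.87-fold, log2 fold change 0.91 ± 0.24, SE; adjusted p = 0.17). Incenp, the scaffold, had 10.8, 13.7, 14.6, 15.0 and 14.4 CPM in MOD and 16.7, 15.6, 17.1, 19.2 and 17.0 CPM in XBS without overlap (1.25-fold, adjusted p = 0.278). Cdca8, borealin, was 1.17-fold higher (adjusted p = 0.442).

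**Figure D3:**
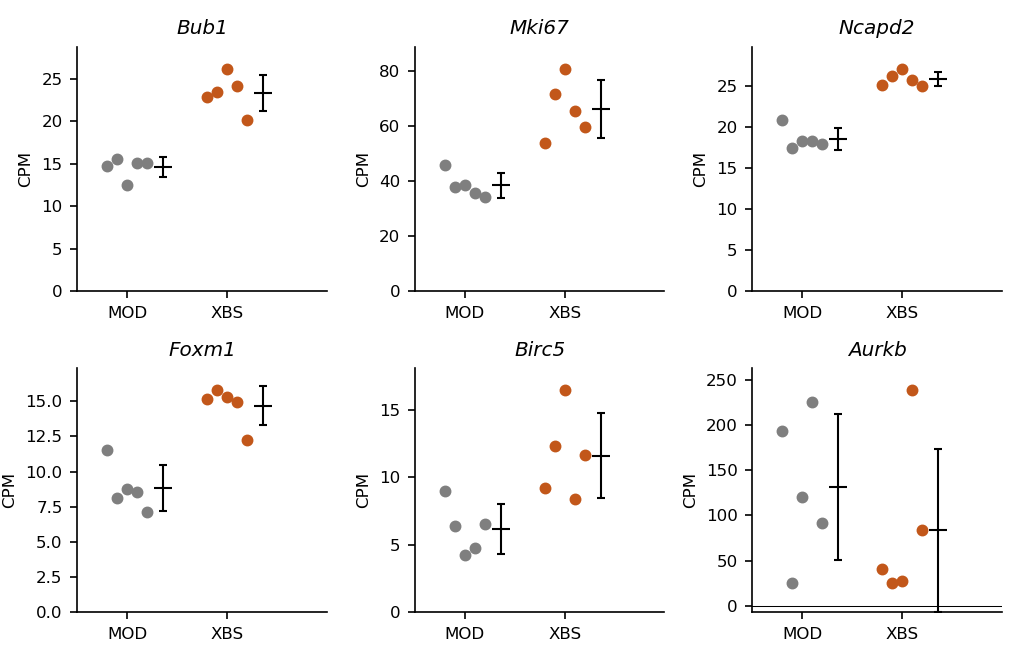
CPM (y axis, from 0 where no error bar goes below it) of 6 mitosis genes in the 5 MOD and 5 XBS libraries (points); the bars beside them are mean ± SD. Bub1, Mki67, Ncapd2 and Foxm1 do not overlap between the groups, Birc5 overlaps in 1 library, and Aurkb runs from 24.9 to 239 CPM with both groups over that span.

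All 3 genes that govern the separation of sister chromatids were higher at an unadjusted p under 0.05 (7.4% of all tested genes). Sgo1 had the largest fold of the 49 genes. Sgo1, shugoshin, which protects centromeric cohesin, had 2.15, 1.87, 2.19, 1.99 and 3.33 CPM in MOD and 3.62, 3.70, 5.39, 4.36 and 4.73 CPM in XBS (1.89-fold, log2 fold change 0.92 ± 0.21, SE; adjusted p = 0.135). MOD 5 was the highest MOD library and lay just below XBS 1. Espl1, separase, had 9.18, 6.92, 6.88, 5.92 and 7.51 CPM in MOD and 10.4, 12.1, 14.1, 9.43 and 11.3 CPM in XBS, without overlap (1.57-fold, adjusted p = 0.136). Pttg1, securin, the inhibitor of separase, had 5.73, 4.47, 3.66, 4.12 and 6.23 CPM in MOD and 4.85, 5.48, 10.5, 9.93 and 6.10 CPM in XBS. Only XBS 3 and XBS 4 stood above all MOD libraries (1.52-fold, adjusted p = 0.354).

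Spindle genes ranged from 1.07-fold to 1.75-fold. Kif11, the kinesin that pushes the spindle poles apart, had 11.3, 10.7, 12.4, 14.4 and 11.9 CPM in MOD and 15.9, 19.4, 22.3, 23.8 and 20.8 CPM in XBS, without overlap (1.68-fold, log2 fold change 0.75 ± 0.13, SE; adjusted p = 0.0837). Nusap1, a microtubule-binding spindle protein, had 10.1, 13.0, 9.58, 11.4 and 12.1 CPM in MOD and 16.6, 18.2, 23.8, 18.3 and 17.1 CPM in XBS, without overlap (1.67-fold, adjusted p = 0.0858). Kif4a, a chromosome-bound kinesin, had the fold change nearest 0 of all 49. It stood at 35.5, 33.2, 35.3, 33.0 and 27.3 CPM in MOD and 37.1, 31.3, 41.1, 34.1 and 31.99 CPM in XBS (log2 fold change 0.10 ± 0.10, SE; adjusted p = 0.693). Kif2c, a microtubule depolymerase, and Tpx2, the activator of Aurora A, stood 1.75-fold and 1.70-fold above MOD, with an adjusted p of 0.0858 and 0.106. Aspm, a spindle pole protein, Kif15, a motor that backs up Kif11 and shares 3529 bases with a gene on the other strand, and Kif18a, which damps chromosome movement, were 1.47-fold, 1.34-fold and 1.19-fold higher (adjusted p = 0.165, 0.273 and 0.422). Of these 8 genes 6 were higher at an unadjusted p under 0.05 (7.4% of all tested genes), all but Kif18a and Kif4a.

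Of the cytokinesis genes 3 of 6 were higher at that level (7.4% of all tested genes), namely Ect2, Kif20a and Prc1. Ect2, the exchange factor that activates RhoA at the cell equator, had 14.9, 11.97, 11.0, 10.8 and 14.5 CPM in MOD and 19.1, 20.4, 29.2, 23.3 and 16.5 CPM in XBS, without overlap (1.72-fold, log2 fold change 0.78 ± 0.16, SE; adjusted p = 0.106). Kif20a, a kinesin of the central spindle, had 17.4, 16.1, 14.4, 13.4 and 16.6 CPM in MOD and 21.1, 20.2, 24.5, 22.1 and 20.6 CPM in XBS, also without overlap (1.39-fold, adjusted p = 0.106). It shares 1910 bases with Cdc23 on the other strand, a gene with a log2 fold change of -0.05. Ect2 binds the centralspindlin complex, whose subunits KIF23 and RACGAP1 come from genes with smaller folds. Kif23 stood at 27.3, 26.2, 23.6, 21.3 and 25.1 CPM in MOD and 23.6, 28.4, 35.4, 31.2 and 23.7 CPM in XBS (1.15-fold, adjusted p = 0.485). Racgap1 was 1.20-fold higher (adjusted p = 0.453), Prc1, which bundles the central spindle, 1.27-fold (adjusted p = 0.298), and Anln, anillin of the contractile ring, 1.33-fold (adjusted p = 0.428).

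XBS 3 stood highest across these genes. It was the highest of all 10 libraries for 33 of 49 genes, XBS 4 for 10, XBS 2 for 5 and XBS 5 for 1, and no MOD library was highest for any. Within XBS, XBS 1 was lowest for 23 genes; even so it lay above every MOD library for 30 of 49, and XBS 3 did so for 48. After subtracting each gene's mean over the libraries from its log2(CPM + 0.5), the median of the 49 genes was -0.17, -0.33, -0.34, -0.26 and -0.14 in MOD and 0.02, 0.18, 0.50, 0.38 and 0.16 in XBS. Summed over all 49, the genes gave 679 to 890 CPM in MOD and 839 to 1223 CPM in XBS, and these ranges overlapped. Without Aurkb the sums were 641 to 697 CPM in MOD and 798 to 1079 CPM in XBS. Either way the genes made up a small part of each library. The coefficient of variation within a group had a median of 12.7% in MOD and 16.0% in XBS. Ranked by abundance, the 17 genes in the middle, with a mean of 3.05 to 5.84 FPKM, had a median log2 fold change of 0.68. It was 0.56 for the 16 less abundant and 0.41 for the 16 more abundant. These differences by abundance were not tested.

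**Figure D4:**
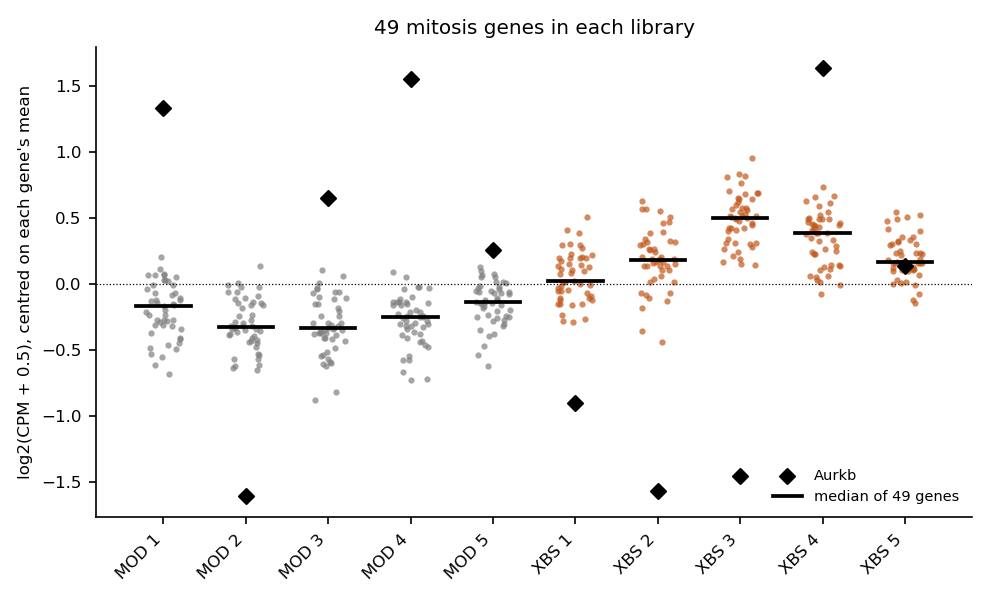
Values of the 49 mitosis genes in each library, as log2(CPM + 0.5) less the mean of that gene over libraries (y axis); points are genes, diamonds are Aurkb and bars are medians over the 49. The medians lie at -0.34 to -0.14 in MOD and 0.02 to 0.50 in XBS, while Aurkb lies at both ends of the scale in each group.

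Other lists of the same process divided into those that were higher like the mitosis genes and those with a median nearer 0. The lists, like the mitosis genes, were chosen with earlier results of these data known. Of 29 other kinetochore and centromere genes, 0 rose, 0 fell and 29 did not pass. A positive log2 fold change was found for 26 (51.9% of all tested genes), with a median of 0.54. At an unadjusted p under 0.05 by edgeR 16 were higher (7.4% of all tested genes), and DESeq2 called 3 higher (1.41%). In 4 every XBS library lay above every MOD library (1.61%). Among the 29 genes Kntc1, which recruits the checkpoint, was 1.71-fold and Cenpu, of the inner kinetochore, 1.61-fold higher (adjusted p = 0.0858 and 0.144). Of 39 rows for other spindle and cytokinesis genes (Spag5 has a pair of rows) 0 rose, 0 fell and 39 did not pass. Positive values were found in 35 (51.9% of all tested genes), with a median of 0.55. At an unadjusted p under 0.05 by edgeR 27 were higher (7.4%), and DESeq2 called 14 higher (1.41%). In 18 every XBS library lay above every MOD library (1.61%). Depdc1 went from 2.48 ± 0.83 to 6.18 ± 0.85 CPM (SD, n = 5; 2.48-fold, adjusted p = 0.0858) and Arhgap11a, which regulates RhoA, was 1.48-fold higher (adjusted p = 0.0858).

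The anaphase-promoting complex, which is present through much of the cell cycle, and cohesin, which all cells use, had medians near 0. Of 20 genes of the anaphase-promoting complex and its regulators, 0 rose, 0 fell and 20 did not pass. Of these 11 were positive, the median log2 fold change was 0.02, and DESeq2 called 1. At an unadjusted p under 0.05 by edgeR 4 were higher, against 7.4% of all tested genes. In 3 every XBS library lay above every MOD library (1.61% of all tested genes). The 4 higher at an unadjusted p under 0.05 were Ube2c, the complex's ubiquitin-conjugating enzyme (1.71-fold, adjusted p = 0.106), Fbxo5, its inhibitor EMI1 (1.39-fold, adjusted p = 0.212), Anapc15 and Anapc4 (1.30-fold and 1.14-fold), the last pair named after their values were seen. Of 15 cohesin genes 0 rose, 0 fell and 15 did not pass, with a median of -0.05, and DESeq2 called 1. At an unadjusted p under 0.05 by edgeR 4 were higher and 1 lower (7.4% and 5.78% of all tested genes). In 2 every XBS library lay above every MOD library (1.61%). Esco2, the acetyltransferase that locks cohesin in S phase, was 1.68-fold and Haspin, the histone kinase that recruits the passenger complex, 1.22-fold higher (adjusted p = 0.0858 and 0.277). Named after their values were seen, Sgo2 and Mau2 were also higher (1.52-fold and 1.30-fold) and Stag1 lower (1.12-fold) at an unadjusted p under 0.05.

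DNA replication genes and E2F, MYB and DREAM complex genes had smaller positive medians. Of 35 DNA replication genes, 0 rose, 0 fell and 35 did not pass. Positive values were found for 32 (51.9% of all tested genes), and the median log2 fold change was 0.20. At an unadjusted p under 0.05 by edgeR 9 were higher (7.4% of all tested genes), and DESeq2 called 4 higher (1.41%). In 4 every XBS library lay above every MOD library (1.61%). Mcm5, of the replicative helicase, and Tk1, thymidine kinase, stood 1.44-fold and 1.46-fold above MOD, with an adjusted p of 0.0854 and 0.0858. Of 21 E2F, MYB and DREAM complex genes 0 rose, 0 fell and 21 did not pass. Positive values were found for 16 (51.9% of all tested genes), with a median of 0.13. In 4 every XBS library lay above every MOD library (1.61%), and DESeq2 called 1 higher (1.41%). At an unadjusted p under 0.05 by edgeR 4 were higher (7.4%). The 4 at that level were E2f2 and E2f8, E2F factors of proliferating cells (1.35-fold and 1.57-fold, adjusted p = 0.129 and 0.207), and, named after their values were seen, Mybl2, which encodes B-MYB, and Lin9 of the MuvB core (1.35-fold and 1.26-fold). Differences between these lists were not tested.

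**Figure D5:**
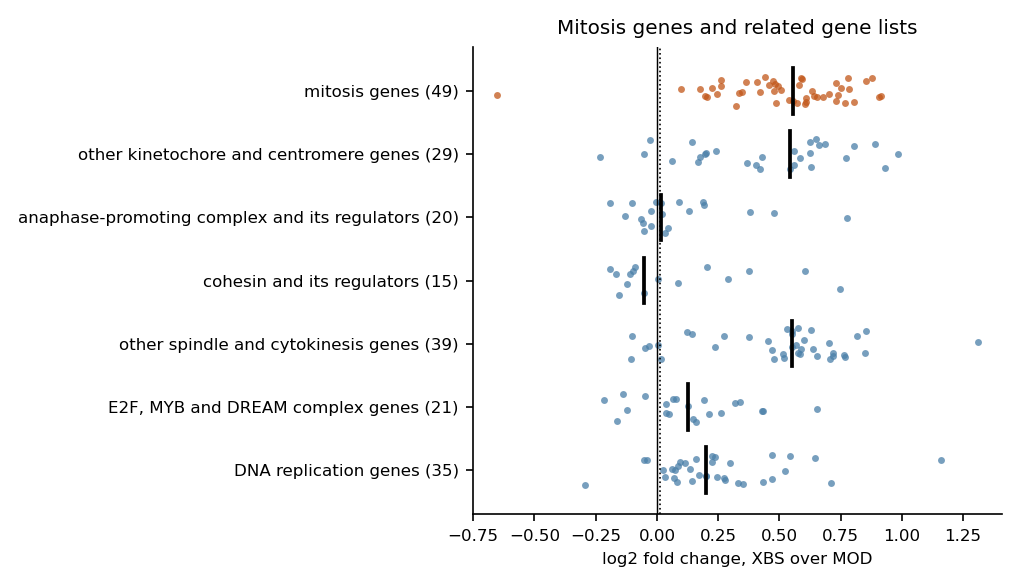
Log2 fold change of XBS over MOD (x axis) for each tested gene of the mitosis genes and 6 related lists (y axis, number of rows in brackets); bars are medians and the dotted line is the median of all tested genes, 0.01. The mitosis, kinetochore and spindle medians lie at 0.54 to 0.56, and those of the anaphase-promoting complex and cohesin at 0.02 and -0.05.

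Markers of immune cells were mostly positive, like the mitosis genes, and their part in the result was not tested. In these lists 0 genes passed the adjusted threshold by edgeR. Counts at an unadjusted p under 0.05 and by DESeq2 are given where above 0. Of all tested genes 51.9% were positive, 7.4% were higher at that unadjusted level and DESeq2 called 1.41% higher. The T cell, B cell and neutrophil lists, with 1 gene each at that level, were near the 7.4% share. Markers of monocytes and interstitial macrophages were positive for 8 of 8 genes (4 higher at an unadjusted p under 0.05, 1 by DESeq2) and summed to 442 to 649 CPM in MOD and 628 to 843 CPM in XBS; T cell markers were positive for 11 of 12 (1 higher at an unadjusted p under 0.05) and summed to 172 to 232 and 228 to 288 CPM. XBS 3, highest for the mitosis genes, was also highest for both of these lists. The same library was highest for plasma cell, alveolar macrophage and alveolar type 2 markers. B cell markers were positive for 9 of 9 (63.2 to 159.5 CPM in MOD, 105 to 258 in XBS), with XBS 5 highest. Neutrophil markers were positive for 8 of 8 (248 to 456 and 272 to 812 CPM), plasma cell markers for 5 of 6 (505 to 939 and 559 to 962 CPM, with Derl3 at 0 counts), and alveolar macrophage markers for 5 of 5 (288 to 338 and 285 to 464 CPM). At an unadjusted p under 0.05, 1 B cell, 1 neutrophil, 2 plasma cell and 2 alveolar macrophage markers were higher, the last with 1 by DESeq2.

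Lists of cell types that divide, in blood formation or immune responses, were measured as well. Neutrophil precursor markers summed to 6.94 to 29.9 CPM in MOD and 4.59 to 58.6 CPM in XBS, with the highest value in XBS 2, and 3 of 8 passed the filter. Over all 10 libraries Ctsg had 2 counts and Ms4a3 had 1. Thymocyte markers summed to 24.2 to 39.6 and 26.4 to 37.0 CPM, with 2 of 4 tested genes positive. Erythroid precursor markers were positive for 2 of 5 and summed to 46.7 to 88.7 CPM in MOD and 43.6 to 50.9 CPM in XBS. Germinal centre markers were positive for 3 of 5 (112 to 135 and 109 to 147 CPM). At an unadjusted p under 0.05, 2 erythroid markers were lower (1 by DESeq2), and 1 germinal centre marker was higher and 1 lower. Of all tested genes 7.4% were higher and 5.78% lower at that level by edgeR, and DESeq2 called 146 of 14320 lower.

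Most lists of lung structure markers had more negative than positive genes, fibroblast markers were mixed, and all summed ranges overlapped between groups. Of all tested genes 5.78% were lower at an unadjusted p under 0.05 by edgeR, and DESeq2 called 146 of 14320 lower. Alveolar type 1 genes were negative for 6 of 6, with 3 lower at an unadjusted p under 0.05 and 2 by DESeq2 (3907 to 4589 CPM in MOD, 2456 to 4033 in XBS) and endothelial genes for 5 of 6, with 4 lower at an unadjusted p under 0.05 (3328 to 4798 and 2331 to 3589 CPM). Alveolar type 2 genes were negative for 6 of 7 (24658 to 31790 and 16598 to 33444 CPM). The 1 tested basal cell gene was negative (1.44 to 9.42 and 3.21 to 9.05 CPM for 4 markers). Fibroblast genes were positive for 3 of 5 with a median log2 fold change of 0.33, and 1 was lower at an unadjusted p under 0.05. They summed to 995 to 2099 CPM in MOD and 1110 to 4121 CPM in XBS, highest in XBS 5, with median sums of 1673 and 1311 CPM. Club and ciliated lists, negative for 3 of 4 and 5 of 5, were lowest in XBS 2 and XBS 3 (2008 and 2260 CPM for club, 318 and 324 CPM for ciliated), against 7324 to 11606 and 510 to 632 CPM in MOD. XBS 1, XBS 4 and XBS 5 had 7423, 8454 and 8039 CPM for club, within the MOD range. For ciliated they had 470, 730 and 599 CPM, with XBS 4 above every MOD library.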

How the data were processed

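Lung RNA-seq libraries were grouped by title, 5 MOD and 5 XBS. Whole-number read counts and FPKM per gene stand side by side in the table the authors deposited, per the file headers; the aligner, rat build, annotation and strand are not named in the sources, whose listed builds are hg38, GRCh38 and mm10. FPKM equalled count over length and library total to within 8.82e-08, relatively. The mitosis genes and all lists were chosen with earlier results of these data known. Counts were filtered (filterByExpr, minimum count 10, total 15), scaled by TMM and fitted in edgeR 4.0.16 (robust quasi-likelihood, Benjamini-Hochberg adjustment, two-sided, threshold 0.05) in R 4.3.3, and the procedure was tested on simulated data. The 14320 genes tested held 99.921% of counts. P-values weigh the difference between groups against the spread between libraries, which may be technical. Alternatives were DESeq2 1.42.0, voom with sample weights (limma 3.58.1), other scalings and filters, a replicate block and libraries left out. Counts of members at an unadjusted p under 0.05 were added under every alternative after the data were seen. Values per library are given for members past the threshold, for the 2 of smallest p and the one of lowest fold change in each role, and for Foxm1; in each related list the 2 genes of smallest p are named. FPKM was used for levels compared between genes. Promoter letters came from RefSeq (GRCr8); gene positions are as deposited.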

Additional observations from a re-analysis of the deposited data

Results flagged for a closer look

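In 48 groups of 5 libraries (the MOD and XBS values of the 24 mitosis genes given in full), the highest or lowest library stood off from the rest by more than Dixon's critical value of 0.71 in 8. Chance flags about 1 in 20 groups. For Bub1, MOD 3 was low at 12.5 CPM, and for Ncapd2, MOD 1 was high at 20.9 CPM; both kept clear of the XBS libraries. For Sgo1, MOD 5 was high at 3.33 CPM. Among XBS libraries, XBS 3 was high for Mad2l1 at 15.1 CPM and for Nusap1 at 23.8 CPM. XBS 5 was low for Foxm1 at 12.3 CPM, XBS 1 was low for Smc4 at 64.3 CPM, and XBS 4 was high for Aurkb at 239 CPM.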

How the results depend on the processing

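Over all tested genes 11 passed the threshold by edgeR, against 348 by DESeq2, 67 by voom, 1 with the replicate block, 3 without XBS 2 and XBS 3, 0 without MOD 4 and XBS 5, and 4 to 15 with single libraries left out. Of the mitosis genes 2 passed as higher, against 25 by DESeq2, 10 by voom, 1 with no filter, 0 with the replicate block, 0 without XBS 2 and XBS 3, 0 without MOD 4 and XBS 5, and 0 to 3 with single libraries left out; the cause was not tested. At an unadjusted p under 0.05 by edgeR, 38 members were higher with the block, 34 without XBS 2 and XBS 3, 33 without MOD 4 and XBS 5, and 34 to 43 with single libraries left out. Members had a median log2 fold change of 0.48 to 0.60 over those runs, 0.50 without XBS 2 and XBS 3, and 0.53 with the block. Bub1 and Mki67 had an adjusted p of 0.158 each with the block. Replicate numbers were not taken to pair the libraries: deviations of same-numbered libraries correlated at 0.33, 0.22, -0.12, 0.09 and 0.20, and of the XBS libraries only XBS 1 correlated best with its own number. Of 456 values of single members under the alternatives, 410 kept direction and side of the threshold, 22 newly passed, 24 no longer passed and 0 reversed. At 26 counts in its lowest library Sgo1 was the member most limited by depth.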
